A study of Mus musculus with 24 samples.

Results

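The Ebf genes of the mouse, Ebf1, Ebf2, Ebf3 and Ebf4, encode the early B cell factor family of transcription factors, and their expression was followed in embryonic stem cells (ESCs) that lost the Polycomb complex PRC1 or only its catalytic activity. The 4 members were taken by symbol from a table of 20633 transcripts and 19409 gene symbols, in which each of them has 1 row. The members were chosen by the measured values of Ebf2, which increased most in one ESC line and less in the other, so the changes of the members with treatment are given as a description and without a test or a call. In this cRNA-seq experiment, RNA of ESCs was sequenced together with RNA of Drosophila SG4 cells that had been mixed in, which calibrates expression to the number of cells. PRC1CKO ESCs (clone B9, E14 background) are Ring1a-/- and Ring1bfl/fl and carry Rosa26::ERT2-Cre. They lack RING1A in every condition and lose RING1B when Cre is switched on. PRC1CPM ESCs (clone 41, E14 background) are Ring1aI50A/D53K and, at the other gene, Ring1b(WT->I53A/D56K)fl/fl, with the same Rosa26::ERT2-Cre. They carry catalytically inactive RING1A in every condition, and Cre replaces their RING1B with an inactive form. Cre fused to the oestrogen receptor was driven from the Rosa26 locus and was switched on by 4-hydroxytamoxifen (OHT), given at 800 nM over 72 h. Each line was taken untreated and OHT-treated in 3 replicates, which gives 12 libraries in 4 conditions. Each line is 1 clone, so differences between the lines and differences between clones cannot be told apart, and none of the libraries used here is from OHT-treated cells without Cre.

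EBF proteins bind DNA as dimers, through a domain that is particular to the family, at a palindromic site with the core CCCNNGGG. EBF1 is required for the commitment of lymphoid progenitors to the B cell lineage, EBF2 marks and helps to establish brown and beige adipocyte precursors, and EBF1, EBF2 and EBF3 are found in many newly born neurons. EBF4 is the least studied member. PRC1 is an E3 ubiquitin ligase whose catalytic subunits RING1A and RING1B modify histone H2A, and it gathers at CpG-rich promoters of developmental genes that ESCs keep off.

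The members are large genes that lie on different chromosomes of the mm10 (GRCm38) build. Ebf1 (NM_001290709, 16 exons) lies on the plus strand at chr11:44618100-45008096. Ebf2 (NM_001276387, 17 exons) lies on the plus strand at chr14:67233292-67430952. Ebf3 (NM_001113414, 16 exons) lies on the minus strand at chr7:137193671-137314445. Ebf4 (NM_001110513, 17 exons) lies on the plus strand at chr2:130295939-130370481. Exons make up 1.33% of the span of Ebf1, 2.80% of Ebf2, 4.14% of Ebf3 and 3.58% of Ebf4, and the counts are read here as covering the whole gene body. Of the 4 members, 3 matched the table of promoter sequences (RefSeq, GRCm38.p6). The 250 bases before the transcript start are shown for them because CpG-rich promoters are where PRC1 is known to gather, and the capitals mark each CpG, read 5′ to 3′ on the strand of the gene.
Ebf1, plus strand, chr11:44617850-44618099: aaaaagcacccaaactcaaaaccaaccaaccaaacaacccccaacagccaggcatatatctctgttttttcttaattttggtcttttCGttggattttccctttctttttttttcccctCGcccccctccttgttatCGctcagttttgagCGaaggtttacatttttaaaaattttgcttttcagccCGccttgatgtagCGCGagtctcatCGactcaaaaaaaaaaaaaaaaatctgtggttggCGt
Ebf3, minus strand, chr7:137314446-137314695: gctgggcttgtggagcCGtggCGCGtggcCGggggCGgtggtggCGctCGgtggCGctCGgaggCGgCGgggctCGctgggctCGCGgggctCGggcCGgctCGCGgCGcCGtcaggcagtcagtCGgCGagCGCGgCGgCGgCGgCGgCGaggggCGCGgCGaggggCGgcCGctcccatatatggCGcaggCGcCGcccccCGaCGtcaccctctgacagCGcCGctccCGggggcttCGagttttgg
Ebf4, plus strand, chr2:130295689-130295938: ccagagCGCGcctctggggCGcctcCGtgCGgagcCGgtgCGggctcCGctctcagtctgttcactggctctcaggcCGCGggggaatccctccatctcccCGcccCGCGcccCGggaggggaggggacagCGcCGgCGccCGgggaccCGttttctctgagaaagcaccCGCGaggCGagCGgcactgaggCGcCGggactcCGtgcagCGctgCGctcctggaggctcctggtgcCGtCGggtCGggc

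The upstream sequences differ in CpG content. The window of Ebf3 holds 43 CpGs and is 80.0% G and C, more CpGs than 99.3% of the 32851 windows of the same length before mouse transcript starts, whose median is 6. Ebf4 has 31 CpGs and 75.2% G and C, more CpGs than 94.8% of the windows. Ebf1 has 9 CpGs and 40.0% G and C, more than 59.7% of the windows. The table holds another window of Ebf1, before a start downstream of the one counted here (chr11:44619978-44620227), with 14 CpGs and 52.0% G and C, more CpGs than 70.6% of the windows. The EBF core CCCNNGGG, which reads the same on both strands, was found 1 time before Ebf3, 0 times before either start of Ebf1 and 0 times before Ebf4, and it is in 11.8% of all windows. The letters CACGTG (6.02% of windows) and TATAAA on either strand (12.4% of windows) are in none of these windows.

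By the median, depth was lower in untreated than in OHT-treated libraries of each line. Between 14668159 and 27016156 reads per library fell on transcripts, with medians of 20998133 in untreated PRC1CKO, 24004077 in OHT-treated PRC1CKO, 19062652 in untreated PRC1CPM and 23164194 in OHT-treated PRC1CPM ESCs. The deposited value is a normalised read count, the reads divided by a size factor from the Drosophila spike-in. Those size factors ran from 0.671 to 1.30, and replicate 1 of untreated PRC1CKO stands apart within its group with 0.671 against 1.30 and 1.18, so every value rests on that scale. The counts of the targeted genes are also read as covering the whole gene body. Rnf2, which encodes RING1B, had normalised read counts of 1756, 1436 and 1385 in untreated and 1489, 1565 and 1585 in OHT-treated PRC1CKO ESCs. It had 1850, 1659 and 1578 in untreated and 1724, 1295 and 1513 in OHT-treated PRC1CPM ESCs. Ring1, which encodes RING1A, was between 166 and 313 in the 6 PRC1CKO libraries and between 111 and 182 in the 6 PRC1CPM libraries. A count over the gene body does not resolve the exon that Cre removes or exchanges, nor the constitutive deletion, so these levels check no label.

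Ebf2, the member linked to brown adipocyte precursors, was almost silent in untreated PRC1CKO ESCs and stood at 680 or more normalised reads after OHT treatment. Its normalised read counts were 5.96, 6.16 and 1.69 in the untreated PRC1CKO libraries, from 4, 8 and 2 reads. After OHT treatment they were 934, 680 and 692, from 1033, 735 and 793 reads. Every OHT-treated library was thus at least 110 times any untreated one, and the ratio of the means was 167. In PRC1CPM ESCs, Ebf2 stood at 15.3, 32.0 and 21.7 untreated, from 12, 34 and 16 reads, and at 397, 319 and 226 after OHT treatment. The groups did not overlap, with a ratio of the means of 13.6 and a lowest library ratio of 7.04. For this and the other members, the share of all transcripts whose groups did not overlap is not given here. The separation of groups is therefore a description of the libraries. Every untreated PRC1CPM library was above every untreated PRC1CKO library. The summed 14 reads of untreated PRC1CKO have a 95% exact Poisson interval of 7.65 to 23.5. The 62 reads of untreated PRC1CPM have one of 47.5 to 79.5. Both intervals treat every read as independent and hold no spread between replicates. The RNA libraries were sequenced from both ends, and all untreated Ebf2 counts are even, so both mates of a fragment may be counted. In that case the intervals are too narrow even for counting error. These values of Ebf2 chose the family, so no test is given for them.

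Ebf3, expressed in developing neurons and mesenchyme, followed the same order of conditions as Ebf2. Its normalised read counts were 14.9, 23.1 and 22.0 in untreated and 1075, 695 and 955 in OHT-treated PRC1CKO ESCs. In PRC1CPM ESCs they were 33.2, 33.0 and 43.4 untreated and 722, 428 and 566 after OHT treatment. The treated and untreated libraries were far apart in both lines, with ratios of the means of 45.4 in PRC1CKO and 15.7 in PRC1CPM. The untreated groups of the 2 lines did not overlap, and the OHT-treated groups did, because replicate 2 of PRC1CKO (695) was below replicate 1 of PRC1CPM (722).

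Ebf1, the B lineage regulator, was already transcribed in untreated ESCs. Its normalised read counts were 775, 383 and 216 in untreated and 2640, 1568 and 2129 in OHT-treated PRC1CKO ESCs. In PRC1CPM ESCs they were 432, 415 and 363 untreated and 1537, 1096 and 986 after OHT treatment. No treated library overlapped the untreated ones of its line, and the ratios of the means were 4.61 and 2.99. The untreated PRC1CKO libraries of Ebf1 spread widely, and replicate 1, the library with the lowest size factor, was the highest. Without that library the log2 difference in PRC1CKO was 2.84, and without replicate 3, the lowest, it was 1.92.

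Ebf4, the least studied member, changed least. Its normalised read counts were 398, 235 and 269 in untreated and 599, 507 and 572 in OHT-treated PRC1CKO ESCs. In PRC1CPM ESCs they were 353, 363 and 371 untreated and 807, 479 and 579 after OHT treatment. Treated and untreated groups did not overlap in either line, a description without the share of all transcripts that do the same. The lowest treated library was only 1.28 times the highest untreated one in PRC1CKO and 1.29 times in PRC1CPM. The ratios of the means were 1.86 and 1.72.

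**Figure D1:**
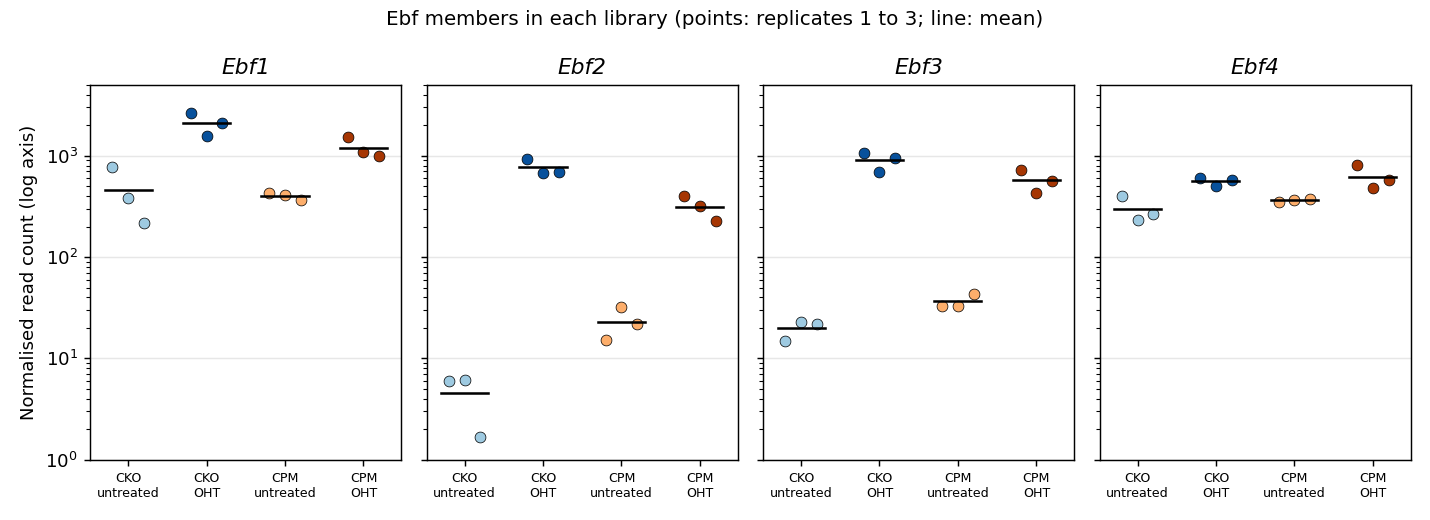
Normalised read counts (log axis) of the 4 Ebf members in each of the 12 libraries, with points for replicates 1 to 3 from left to right and a line at the mean of each condition. Ebf2 and Ebf3 stay at or below 43.4 in every untreated library and are at 226 or higher in every OHT-treated library, whereas Ebf1 and Ebf4 start at 216 or higher.

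Because the members differ in length, their levels were set beside each other per kilobase (kb) of gene span. In untreated PRC1CKO ESCs, Ebf4 had the highest level, 4.03 ± 1.15 normalised reads per kb (SD, n = 3). Ebf1 followed with 1.17 ± 0.735, Ebf3 had 0.166 ± 0.0368 and Ebf2 had 0.0233 ± 0.0128. The ranges of these neighbours did not overlap. After OHT treatment of PRC1CKO, Ebf3 (7.52 ± 1.61) and Ebf4 (7.51 ± 0.635) were the highest and their libraries overlapped, and Ebf1 reached 5.42 ± 1.38 and Ebf2 3.89 ± 0.724. Ebf1 overlapped both Ebf3 above it and Ebf2 below it. In PRC1CPM the order was Ebf4, Ebf1, Ebf3 and Ebf2 before treatment, with 4.86 ± 0.124, 1.03 ± 0.0918, 0.303 ± 0.0491 and 0.116 ± 0.0426 normalised reads per kb. After OHT treatment of PRC1CPM it was Ebf4 (8.34 ± 2.26), Ebf3 (4.74 ± 1.22), Ebf1 (3.09 ± 0.747) and Ebf2 (1.59 ± 0.433), with overlapping libraries between Ebf3 and Ebf1 and between no other neighbours.

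The sum of the 4 members per kb went from 5.39 ± 1.80 to 24.3 ± 4.21 in PRC1CKO and from 6.31 ± 0.104 to 17.8 ± 4.41 in PRC1CPM. A share of this sum is a ratio within a library and does not depend on the spike-in scale. Ebf4 made up 75.5% ± 6.38 of the sum in untreated PRC1CKO and 31.2% ± 2.86 after OHT treatment, against 77.0% ± 0.937 and 46.8% ± 1.90 in PRC1CPM. Ebf2 went from 0.438% ± 0.261 to 16.0% ± 1.55 in PRC1CKO and from 1.84% ± 0.655 to 9.03% ± 2.07 in PRC1CPM. Ebf3 went from 3.41% ± 1.53 to 30.8% ± 1.80 and from 4.79% ± 0.732 to 26.7% ± 2.25. The shares of Ebf1 overlapped before and after treatment, 20.6% ± 7.11 and 22.0% ± 1.87 in PRC1CKO and 16.4% ± 1.67 and 17.5% ± 1.94 in PRC1CPM. In both lines the make-up thus moved from Ebf4 towards Ebf3 and Ebf2. The place of Ebf1 depends on the length used. Per kb of exon it made up 43.0% of the sum in OHT-treated PRC1CKO, more than the 22.7% of Ebf4 and the 19.4% of Ebf3, and 36.5% in OHT-treated PRC1CPM, level with the 36.5% of Ebf4.

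**Figure D2:**
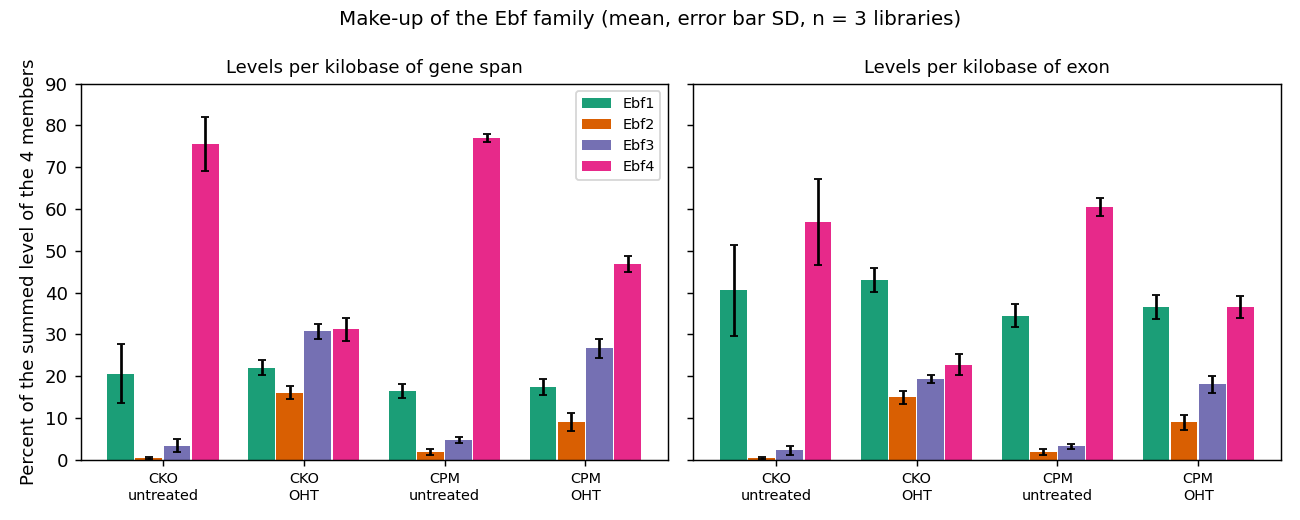
Share of each Ebf member in the summed level of the 4 members (percent, bars are means and error bars SD of 3 libraries), with levels per kb of gene span at the left and per kb of exon at the right. Ebf4 falls from 75.5% to 31.2% in PRC1CKO and from 77.0% to 46.8% in PRC1CPM by span, and Ebf1 is the larger share by exon in OHT-treated PRC1CKO.

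Set beside all transcripts, the members spread over the upper part of the distribution of changes. Differences were fitted on log2(normalised read count + 1), a scale that understates the change of low genes, over the 16940 transcripts that reached 10 reads in 3 or more libraries. Calls needed an adjusted p below 0.05 together with a change of over 1.5-fold. In PRC1CKO the log2 difference between OHT-treated and untreated ESCs was 7.22 ± 0.38 (SE, n = 3 against 3) for Ebf2, 5.44 ± 0.31 for Ebf3, 2.36 ± 0.28 for Ebf1 and 0.93 ± 0.26 for Ebf4. These are ranks 1, 10, 738 and 2734 from the highest of 16940. In PRC1CPM it was 3.73 ± 0.38 for Ebf2, 3.91 ± 0.31 for Ebf3, 1.56 ± 0.28 for Ebf1 and 0.74 ± 0.26 for Ebf4, which are ranks 58, 41, 1155 and 3002. Of all transcripts tested, 16.5% were called higher in PRC1CKO and 13.1% in PRC1CPM, and 3.09% and 1.4% were called lower. Since the rule used these contrasts, the members are given without calls. When each of the 12 libraries was left out in turn, the log2 difference of Ebf4 ran from 0.77 to 1.15 in PRC1CKO and from 0.54 to 0.91 in PRC1CPM. In a bulk sample, more cells that transcribe a gene and more transcription in each cell cannot be told apart.

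Another scale moved the members by 0.12 or less. The median log2 difference over all transcripts was 0.12 in PRC1CKO and 0.10 in PRC1CPM with the spike-in scale, and -0.0019 and -0.0072 with TMM, a scale set by the bulk of the genes themselves. With TMM, Ebf2 had 7.13 and 3.62, Ebf3 5.32 and 3.80, Ebf1 2.24 and 1.45 and Ebf4 0.81 and 0.64. Relative to the spike-in median, the differences were 7.10 and 3.63 for Ebf2, 5.32 and 3.81 for Ebf3, 2.25 and 1.46 for Ebf1 and 0.81 and 0.64 for Ebf4 in PRC1CKO and PRC1CPM. Over all transcripts, 2787 were called higher and 524 lower in PRC1CKO, against 2845 and 1133 with TMM. In PRC1CPM 2226 were higher and 237 lower, against 2396 and 595 with TMM.

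**Figure D3:**
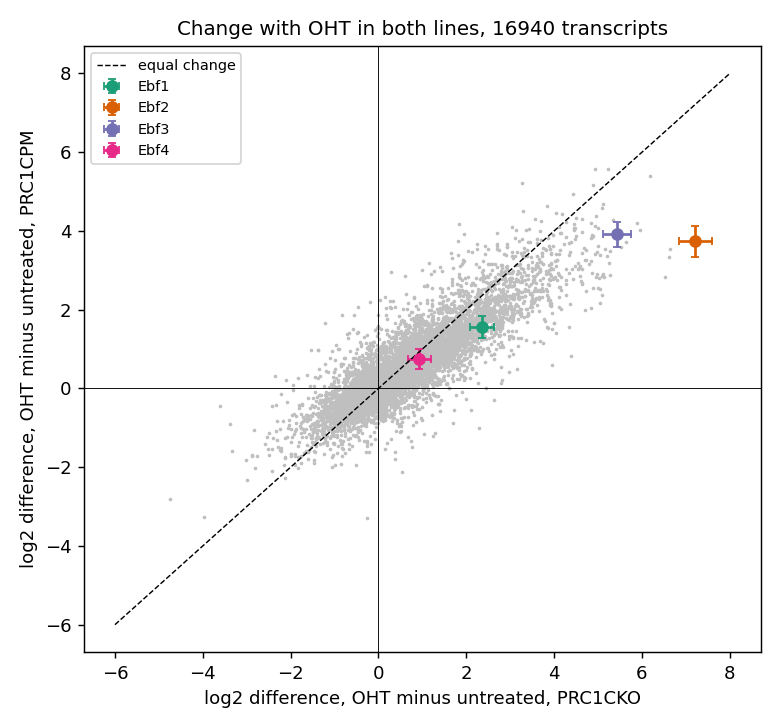
log2 difference between OHT-treated and untreated ESCs in PRC1CKO (horizontal axis) and PRC1CPM (vertical axis) for the 16940 transcripts tested (grey), with the Ebf members in colour, their standard errors as bars and a dashed line of equal change. All 4 members lie below the dashed line, Ebf2 farthest from it at 7.22 and 3.73, and Ebf4 closest at 0.93 and 0.74.

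After OHT treatment, the mean levels of 3 members were lower in PRC1CPM than in PRC1CKO ESCs. The mean level in PRC1CPM was 40.8% of that in PRC1CKO for Ebf2, 57.1% for Ebf1, 63.0% for Ebf3 and 111% for Ebf4. The OHT-treated groups of Ebf1 and Ebf2 did not overlap, and those of Ebf3 and Ebf4 did. The share of all transcripts without overlap between these groups is not given here, so this describes the libraries only. By adjusted p and fold change, 1.47% of all transcripts tested were called different between the OHT-treated lines, which is not a share without overlap. By limma, the log2 difference of Ebf1 was -0.80 ± 0.28 (SE, 95% interval -1.36 to -0.24) with an adjusted p of 0.162, lower in 3 of 3 PRC1CPM libraries. Its adjusted p ran from 3.4e-07 to 0.588 over the alternatives, and it was called in 7 of 23, which were TMM, the fit to only the libraries compared, limma and edgeR with the replicate block, and the fits without PRC1CKO untreated replicate 1 and without PRC1CPM untreated replicate 1 or 2. For Ebf3 it was -0.68 ± 0.31 (95% interval -1.30 to -0.05) with an adjusted p of 0.397, called in 2 of 23 alternatives, limma and edgeR with the replicate block, and for Ebf4 it was 0.12 ± 0.26 (95% interval -0.40 to 0.64) with an adjusted p of 0.983, called in 0 of 23, and its sign turned without PRC1CPM OHT-treated replicate 1 (-0.084). For Ebf2 the log2 difference was -1.31 ± 0.38, given without a test.

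In untreated ESCs, the libraries of the 2 lines overlapped for Ebf1 and Ebf4 and stood apart for Ebf2 and Ebf3. The ratio of the PRC1CPM to the PRC1CKO mean was 5.00 for Ebf2, 1.83 for Ebf3, 1.21 for Ebf4 and 0.881 for Ebf1. By adjusted p and fold change, 2.69% of all transcripts tested were called different between the untreated lines. This is not the share of transcripts whose groups stood apart, which is not given here. By limma, the log2 difference of Ebf3 was 0.85 ± 0.31 (SE, 95% interval 0.22 to 1.48) with an adjusted p of 0.150, higher in 3 of 3 PRC1CPM libraries and called in 2 of 23 alternatives, both with the replicate block. Ebf4 had 0.31 ± 0.26 (95% interval -0.21 to 0.82) with an adjusted p of 0.731, and Ebf1 had 0.0057 ± 0.28 (95% interval -0.56 to 0.57) with an adjusted p of 1.00, both called in 0 of 23. The sign of the Ebf1 difference turned with TMM (-0.11), edgeR (-0.17, and -0.048 with the replicate block) and DESeq2 (-0.18). It ran from -0.44 without PRC1CKO untreated replicate 3 to 0.48 without PRC1CKO untreated replicate 1, and was also below 0 without PRC1CKO untreated replicate 2 or PRC1CPM untreated replicate 1 or 2. The Ebf4 difference ran from 0.15 to 0.53 when each library was left out in turn. For Ebf2 it was 2.17 ± 0.38, without a test, and 1.16 with a pseudocount of 10 in place of 1.

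On the log2 scale the change with treatment was smaller in PRC1CPM than in PRC1CKO for Ebf2, Ebf3 and Ebf1, and that of Ebf4 differed by less than its standard error. The change in PRC1CPM minus that in PRC1CKO was -3.48 ± 0.54 (log2, SE) for Ebf2, -1.53 ± 0.44 for Ebf3, -0.81 ± 0.40 for Ebf1 and -0.19 ± 0.36 for Ebf4. When each library was left out in turn, it ran from -1.71 to -1.33 for Ebf3 and from -1.28 to -0.37 for Ebf1. For Ebf4 it ran from -0.41 to -0.014. These values are given without a test, since the rule used this contrast, in which 0.0236% of all transcripts tested were called. On the scale of normalised read counts, the gain of PRC1CPM was 38.0% of that of PRC1CKO for Ebf2, 48.5% for Ebf1, 60.3% for Ebf3 and 100.05% for Ebf4. The Ebf4 gain in PRC1CPM leans on OHT-treated replicate 1, at 807 normalised reads against 479 and 579. Without that library the log2 difference of Ebf4 was 0.54 in PRC1CPM, against 0.93 in PRC1CKO, so equal gains are not shown.

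Genes that work with EBF proteins, or that EBF proteins are known to bind or accompany in other cell types, were followed as 5 lists. The median log2 differences of all transcripts, 0.12 and 0.10, and the shares called, 16.5% higher and 3.09% lower in PRC1CKO and 13.1% and 1.4% in PRC1CPM, stand beside each list as its background. Of the 9 measured EBF partners (10 symbols, Prdm16 not analysed here), 4 rose and 1 fell in each line, with list medians of 0.52 in PRC1CKO and 0.70 in PRC1CPM. In PRC1CKO, Pax5, the B cell identity factor that EBF1 activates, rose from 13.8 ± 6.87 to 97.3 ± 23.2 normalised reads (SD, n = 3; log2 difference 2.84 ± 0.40). Ikzf1, which encodes the lymphoid regulator Ikaros, rose from 32.1 ± 10.1 to 134 ± 29.1 (2.05 ± 0.32). Zfp521, a zinc finger protein that binds EBF1 and opposes it, rose from 379 ± 42.4 to 1304 ± 106 (1.78 ± 0.24). Runx1, which acts with EBF1 in lymphoid progenitors, rose from 265 ± 135 to 693 ± 277 (1.43 ± 0.31). Tet2, an enzyme that oxidises methylcytosine, fell from 5270 ± 1812 to 2432 ± 454 (-1.08 ± 0.24).

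In PRC1CPM the partners called were Zfp521 (1.44 ± 0.24), Runx1 (1.02 ± 0.31), Ikzf1 (0.99 ± 0.32), Zfp423 (0.70 ± 0.23) and Tet2 (-0.77 ± 0.24). Zfp423 is a zinc finger partner of EBF proteins in olfactory neurons and adipocytes, and had 0.52 ± 0.23 in PRC1CKO without a call, and was called there without PRC1CKO untreated replicate 1. Pax5 had 1.07 ± 0.40 in PRC1CPM with an adjusted p of 0.0709 by limma, and was called there by edgeR and DESeq2, with a pseudocount of 10, with the replicate block and without PRC1CKO untreated replicate 1. DESeq2 called neither Runx1 nor Tet2 in PRC1CPM, and without the mean-variance trend Ikzf1 and Zfp521 were the partners called there. Pax5 and Ikzf1 were also called higher in untreated PRC1CPM than in untreated PRC1CKO ESCs (1.85 and 2.50 log2), so the lines started apart, and the difference between the 2 changes of Pax5 was -1.78 ± 0.57 (adjusted p 0.729 by limma). In PRC1CPM, Zfp521 kept its call without any single library, Ikzf1 lost it without untreated replicate 1 or 2 or OHT-treated replicate 1 or 3, Runx1 and Zfp423 without untreated replicate 3 or OHT-treated replicate 1, and Tet2 without untreated replicate 1 or 3 or OHT-treated replicate 2. Without the filter on low counts Zfp521 alone was called there, and 3 rose and 0 fell in PRC1CKO.

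Genes of the B lineage, many of them known targets of EBF1 in B cells, were followed next. Of 12 B-lineage symbols 10 were measured and 6 had enough reads to test, and 0 were called in either direction in either line by limma, edgeR or DESeq2, with list medians of 0.42 and 0.16. With 6 genes tested, 0 calls cannot be set apart from the share of all transcripts called. At an unadjusted p under 0.05, 1 (Cd79b) passed in PRC1CKO and 0 in PRC1CPM by limma. Cd79b, a part of the B cell receptor, had the largest value in PRC1CKO (1.08 ± 0.47, adjusted p 0.108) at 22.3 ± 19.9 and 38.2 ± 11.7 normalised reads, and it was called with the replicate block and without PRC1CKO untreated replicate 1. Il7r, the receptor of interleukin 7, had 0 reads in all 12 libraries.

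Of the 7 adipocyte genes tested (10 measured), 3 rose and 0 fell in each line, with list medians of 1.33 and 1.01. Cebpa, an adipocyte transcription factor, rose from 62.9 ± 15.8 to 315 ± 34.1 normalised reads in PRC1CKO and from 92.2 ± 17.6 to 361 ± 120 in PRC1CPM (log2 differences 2.33 ± 0.31 and 1.92 ± 0.31). Cidea, which encodes a lipid droplet protein of brown fat, rose from 177 ± 57.3 to 433 ± 36.5 and from 224 ± 55.3 to 458 ± 132 (1.33 ± 0.28 and 1.01 ± 0.28), and lost its call in PRC1CPM without untreated replicate 3, OHT-treated replicate 1 or OHT-treated replicate 3, and without the filter on low counts. Ppargc1a, a coactivator of mitochondrial genes, rose from 1.03 ± 1.78 to 16.3 ± 3.52 and from 6.07 ± 2.04 to 38.3 ± 6.43 (3.41 ± 0.63 and 2.51 ± 0.63), from a few reads per library when untreated, and its call in PRC1CPM was lost with a pseudocount of 0.1. Pparg, the main adipocyte regulator, had log2 differences of 1.68 and 1.31 without a call, and was called in PRC1CKO by edgeR, with a pseudocount of 10, with the replicate block, with only the libraries compared and in 5 of the 12 fits that left out 1 library, and in PRC1CPM by edgeR with the block. Ppara, a regulator of fatty acid oxidation, had log2 differences of 0.53 and 0.84 without a call, and was called in PRC1CPM by DESeq2, with TMM and with the replicate block. Ucp1, the uncoupling protein of brown fat, had 11.2 ± 1.64 and 11.8 ± 7.81 normalised reads without and with OHT in PRC1CKO, a log2 difference of -0.17 ± 0.59 (adjusted p 0.910 by limma).

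The olfactory list held 6 genes, 4 of them tested, and 1 rose in each line, with list medians of 0.33 and 0.44. This was Gnal, the G protein subunit of olfactory neurons, which went from 549 ± 163 to 1216 ± 165 normalised reads in PRC1CKO and from 639 ± 75.9 to 1161 ± 273 in PRC1CPM (log2 differences 1.17 ± 0.24 and 0.84 ± 0.24). Its call in PRC1CPM was lost without untreated replicate 3 or OHT-treated replicate 1 and without the filter on low counts, and Ano2, a chloride channel of olfactory neurons, was called there with the replicate block and without the mean-variance trend. Omp, the olfactory marker protein, had -0.37 ± 0.45 and -0.33 ± 0.45 and passed in neither line.

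Among the 12 early neuron genes tested (15 measured), 6 rose and 2 fell in PRC1CKO and 5 rose and 0 fell in PRC1CPM, with list medians of 1.35 and 0.75. Reln, which encodes the secreted protein reelin of Cajal-Retzius cells, rose from 205 ± 35.5 to 1690 ± 158 normalised reads in PRC1CKO and from 383 ± 13.0 to 1979 ± 234 in PRC1CPM (log2 differences 3.04 ± 0.23 and 2.36 ± 0.23). The LIM homeobox gene Lhx5 rose from 2.72 ± 2.56 to 73.5 ± 18.9 and from 1.48 ± 1.33 to 36.3 ± 20.4 (4.65 ± 0.63 and 3.97 ± 0.63), and its relative Lhx1 rose by 3.91 ± 0.66 and 2.11 ± 0.66. The proneural genes Neurog1 (2.80 ± 0.59) and Neurog2 (2.66 ± 0.80) rose in PRC1CKO, to at most 43 and 12 reads per library, and Neurog2 was called in PRC1CPM (2.53 ± 0.80) and Neurog1 was not (1.09 ± 0.59), while the difference between the 2 changes of Neurog1 was -1.71 ± 0.83 (adjusted p 1.00 by limma). Nhlh2 rose by 2.49 ± 0.76 and 2.84 ± 0.76 from 2 or fewer reads in each untreated library. Tubb3, a neuronal tubulin, fell by 0.71 ± 0.25 and Stmn2, a regulator of microtubules, by 0.59 ± 0.21 on the log2 scale in PRC1CKO, and both calls were lost without untreated replicate 1 or 3 or OHT-treated replicate 1 or 2, that of Tubb3 also without OHT-treated replicate 3 or PRC1CPM untreated replicate 3. Neurog2 and Nhlh2 had 20 or fewer reads in each library. In PRC1CKO the call of Neurog2 was lost without untreated replicate 3 or OHT-treated replicate 1 or 2 and that of Nhlh2 without untreated replicate 2 or OHT-treated replicate 1, and in PRC1CPM that of Neurog2 without untreated replicate 2 or OHT-treated replicate 1 or 3 and that of Lhx1 without untreated replicate 3 or OHT-treated replicate 1. In PRC1CKO the call of Stmn2 was also lost by DESeq2, with a pseudocount of 0.1, without the filter on low counts and without the mean-variance trend, and that of Nhlh2 with a pseudocount of 0.1. In PRC1CPM the call of Lhx1 was also lost by DESeq2, with TMM and without the mean-variance trend, and those of Lhx1 and Neurog2 with a pseudocount of 0.1 and without the filter.

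**Figure D4:**
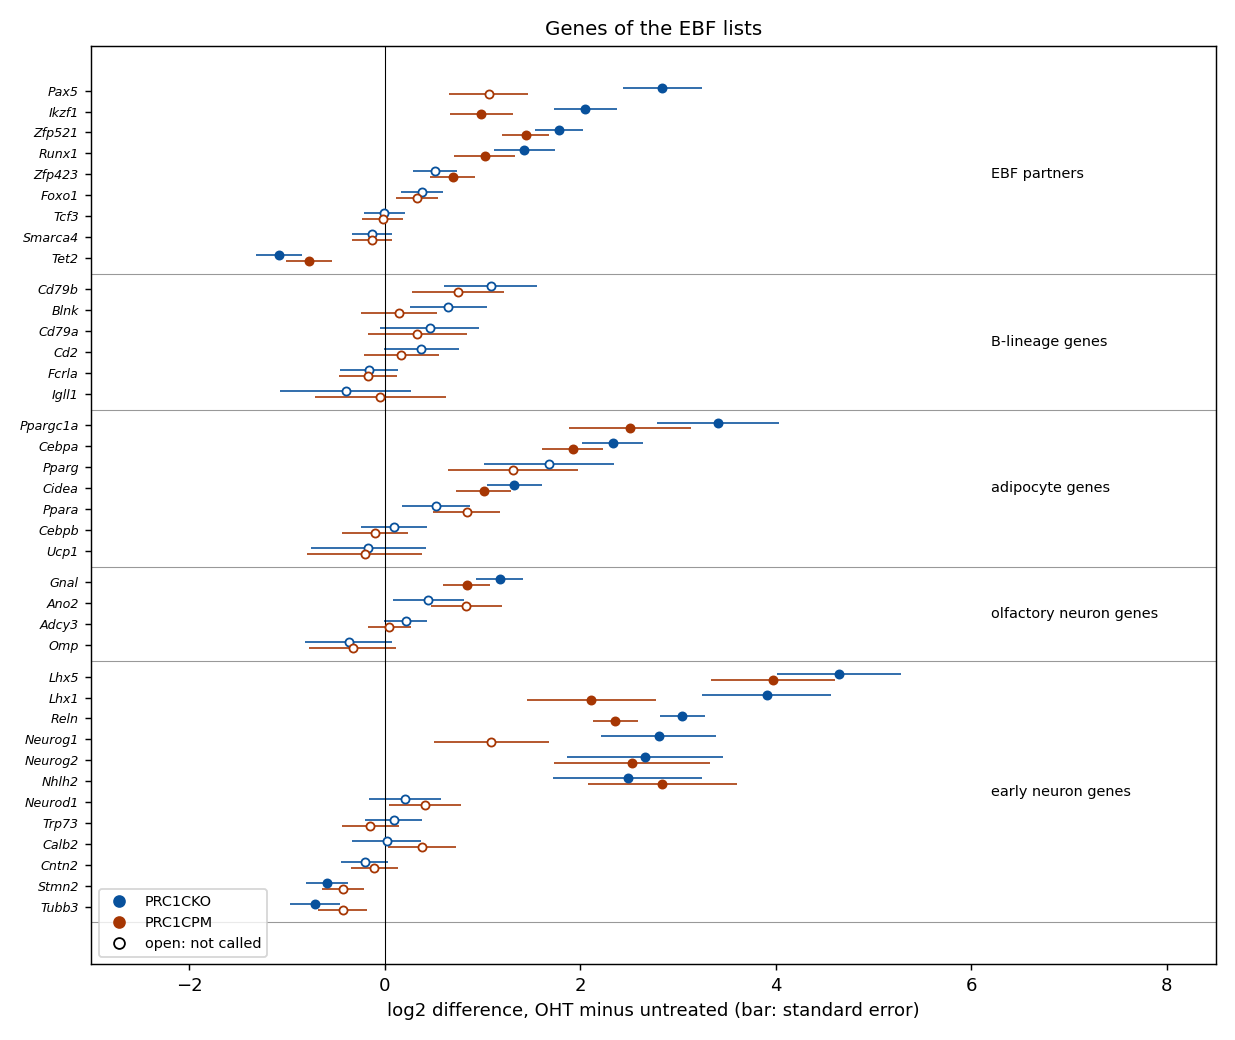
log2 difference between OHT-treated and untreated ESCs with its standard error for the tested genes of the 5 EBF lists, PRC1CKO in blue and PRC1CPM in brown, filled where called. Reln, Lhx1 and Lhx5 lie at 2.11 or higher in both lines, whereas the 6 B-lineage genes all have open symbols.

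Markers of ESCs and of the other cell types that use EBF proteins were measured in the same libraries. Their background is the share of all transcripts called, 16.5% higher and 3.09% lower in PRC1CKO and 13.1% and 1.4% in PRC1CPM. With so few markers of each type, 0 calls cannot be set apart from these shares. All 7 ESC markers found (of 8) were tested, and 1 fell in PRC1CKO by limma and DESeq2 (Sox2, log2 difference -0.89). Pou5f1 was called lower there as well by edgeR and with TMM, and Pou5f1 and Tdgf1 without untreated replicate 2. In PRC1CPM 0 were called by limma, edgeR or DESeq2, Tdgf1 was called lower without untreated replicate 2 and Klf4 higher without OHT-treated replicate 2, and 1 passed an unadjusted p of 0.05 by limma. Their summed level was 66321 ± 15940 normalised reads in untreated and 51634 ± 4007 in OHT-treated PRC1CKO and 60877 ± 11065 and 55868 ± 16207 in PRC1CPM, with Tdgf1 the most abundant. The 5 B cell markers summed to 41.5 ± 27.2 and 61.0 ± 7.34 in PRC1CKO and to 71.7 ± 4.55 and 99.2 ± 36.2 in PRC1CPM, with Cd79b, described above, the most abundant. The 4 adipocyte markers (Adipoq, Plin1, Fabp4 and Lep) summed to 16.2 ± 6.68 or less in each condition, and 0 of them had enough reads to test. Lep was at 0 in OHT-treated PRC1CKO. In OHT-treated PRC1CKO, where Ebf1 and Ebf2 were highest, the B cell markers Cd79b, Cd79a, Ms4a1 and Ptprc had means of 38.2, 20.7, 1.18 and 0.582 normalised reads, against 22.3, 16.1, 0.564 and 1.56 untreated. The adipocyte markers Plin1, Fabp4 and Adipoq had means of 4.24, 1.81 and 0.301, against 3.45, 2.07 and 1.79 untreated.

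Among the other markers, the sum of those of primitive endoderm rose with OHT treatment in both lines, and those of neurons and mesenchyme did not all move in the same direction. The 4 primitive endoderm markers (Gata4, Gata6, Sox17 and Sox7) summed to 395 ± 216 in untreated and 1934 ± 346 in OHT-treated PRC1CKO, and to 215 ± 12.7 and 816 ± 181 in PRC1CPM, with Gata6 the most abundant. Of these 4 markers, 3 were called higher in PRC1CKO and 4 in PRC1CPM by limma, against 16.5% and 13.1% of all transcripts. Sox7 was also called in PRC1CKO by edgeR and DESeq2, with TMM, with a pseudocount of 10, with the replicate block, without the mean-variance trend, with only the libraries compared and in 3 of the 12 fits that left out 1 library. The calls of Sox17 were lost without the filter on low counts, without PRC1CKO untreated replicate 3 or OHT-treated replicate 1 or 2, and without PRC1CPM untreated replicate 1 or 3 or OHT-treated replicate 1 or 2. Of the 5 neuron markers, 2 rose (Map2 and Rbfox3) and 2 fell (Snap25 and Tubb3) in PRC1CKO, and 2 rose (Map2 and Rbfox3) and 1 fell (Snap25) in PRC1CPM. In PRC1CKO the call of Map2 was lost without untreated replicate 3 or OHT-treated replicate 1, and in PRC1CPM that of Map2 was lost without untreated replicate 2 or 3, OHT-treated replicate 1 or any OHT-treated PRC1CKO library, that of Rbfox3 without untreated replicate 3 or OHT-treated replicate 1 and that of Snap25 without OHT-treated replicate 2. The call of Map2 was also lost without the filter on low counts in both lines, and in PRC1CPM with TMM, with a pseudocount of 0.1, without the mean-variance trend and with only the libraries compared. Syp was called lower with TMM in both lines and with the replicate block in PRC1CPM. Their sum, with Map2 the most abundant, was 2209 ± 429 and 2924 ± 370 in PRC1CKO and 2103 ± 283 and 2709 ± 655 in PRC1CPM. Among the 5 mesenchyme markers, Pdgfra was called higher in each line, Col1a2 had no call but was called lower in PRC1CPM by edgeR, with TMM, with the replicate block, with only the libraries compared and in 6 of the 12 fits that left out 1 library, Col1a1 was called higher there without untreated replicate 1, and the sum, with Col1a1 the most abundant, was 3013 ± 1828 and 3630 ± 622 in PRC1CKO and 6780 ± 5764 and 7893 ± 5332 in PRC1CPM. Lum was at 0 in untreated PRC1CKO and in OHT-treated PRC1CPM. The part of cells of these types, B cells and adipocytes included, in the levels of the Ebf members was not tested.

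The genes whose pattern was most like each member were named by the Pearson correlation of log2(normalised read count + 1) over the 12 libraries among 15792 tested symbols, with no p, because the libraries fall into 4 conditions and share their scale. For Ebf2 they were Fat3, Grid1, Cacnb4, Slc24a2 and Epha6, with r from 0.988 to 0.993. Their log2 differences with OHT were 2.21 to 4.13 in PRC1CKO and 1.09 to 2.57 in PRC1CPM. For Ebf3 they were Paqr9, Ildr2, Arsb, Cacna1d and Pcdh10, with r from 0.986 to 0.990. For Ebf1 they were Gata4, Hmga2, Lingo2, Fbxl7 and Hoxd8, with r from 0.983 to 0.987. For Ebf4 they were Fam83f, Gm7694, Ky, Trpm2 and Twist1, with r from 0.973 to 0.986. A high r is common in these libraries, since between 5.10% and 5.47% of symbols reached over 0.9 with a given member. No other Ebf gene was among the 5 nearest of any member. Between the members, r was 0.971 for Ebf2 with Ebf3, 0.914 for Ebf1 with Ebf2 and 0.860 to 0.889 for the other pairs.

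Genes next to the members were followed in the same way. The 2 nearest other symbols on each side by transcript start were followed, 16 in all, of which 11 were tested. Of these, 2 were called in PRC1CKO and 0 in PRC1CPM, where Mgmt had an adjusted p of 0.0871 by limma, and 2 of 11 is near the 16.5% of all transcripts called higher in PRC1CKO. Next to Ebf2, Ppp2r2a, whose start lies 161 kb upstream, had log2 differences of 0.14 ± 0.20 and 0.14 ± 0.20 in PRC1CKO and PRC1CPM, and Bnip3l, 224 kb upstream, had -0.55 ± 0.24 and -0.16 ± 0.24. Next to Ebf3, 9430038I01Rik, 96.3 kb upstream, had 0.13 ± 0.25 and 0.13 ± 0.25, and Glrx3, 123 kb upstream, had -0.05 ± 0.22 and -0.07 ± 0.22. Mgmt, a DNA repair gene 420 kb downstream of the start of Ebf3, rose in PRC1CKO (0.66 ± 0.23), as did Cpxm1, a carboxypeptidase gene 102 kb downstream of the start of Ebf4 (0.83 ± 0.24). Next to Ebf4, Idh3b, 11.5 kb upstream, had -0.07 ± 0.24 and 0.06 ± 0.24. Next to Ebf1, Rnf145, 99.1 kb upstream, had -0.30 ± 0.21 and -0.23 ± 0.21.

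Rows that overlap the members had few reads. Inside the span of Ebf2 lie 4930438E09Rik, whose mean was at most 7.38 normalised reads in any condition, and Gm6878, at most 0.515. Gm10578, inside Ebf3, was at 0 in every condition. All 3 are on the strand opposite to the member, and whether the counting used strand is not given in the sources used here, so reads of a pair cannot be assigned with certainty. No row overlaps Ebf1 or Ebf4.

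**Figure D5:**
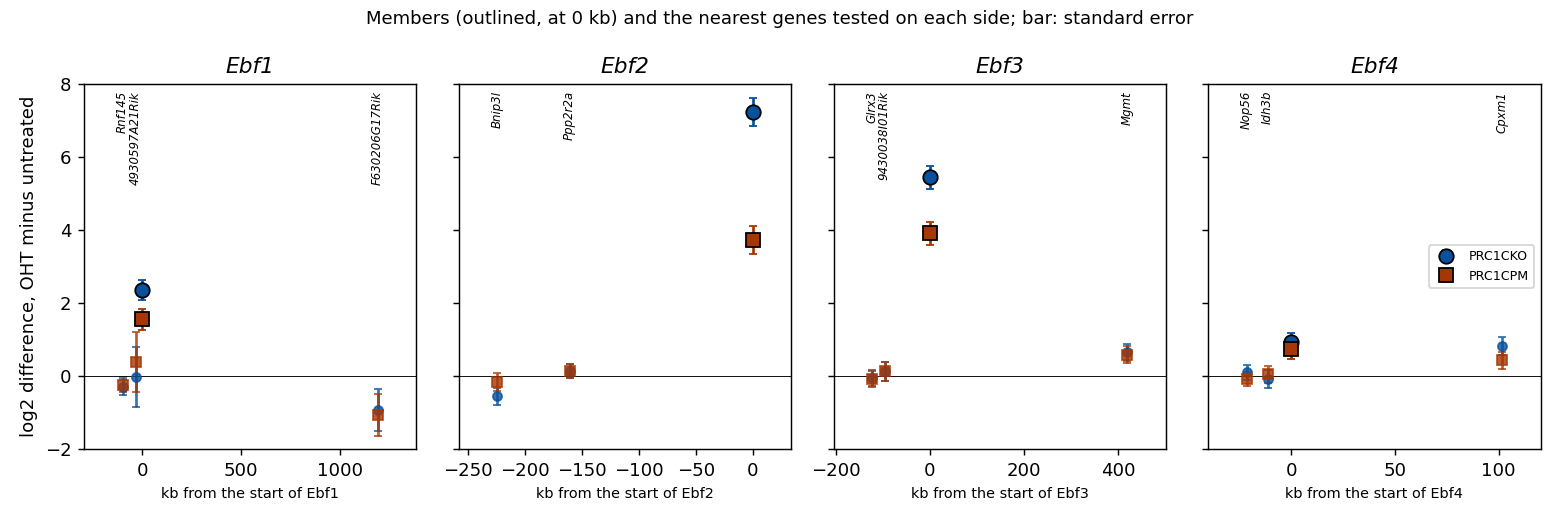
log2 difference between OHT-treated and untreated ESCs (bars are standard errors) of each Ebf member, outlined at 0 kb, and of the tested genes nearest to it, placed by the distance between transcript starts in kb along the direction of the member. The neighbours lie between -1.06 and 0.83, whereas Ebf2 and Ebf3 lie at 3.73 or higher in both lines.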

How the data were processed

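RNA of 12 libraries was analysed, 3 for each of 4 conditions, and the matched genomic DNA libraries were not analysed here. According to the study's methods, the authors removed ribosomal DNA reads with Bowtie 2 and aligned the rest with STAR and then Bowtie 2 to the joined mm10 and dm6 genomes. They kept unique reads without PCR duplicates and counted them for a non-redundant gene set. They divided the counts by Drosophila spike-in size factors corrected for the mixing ratio in genomic DNA, and the deposited signal is that normalised read count. Whether the counting used strand is not given in the sources used here. The paper names gene bodies where replicates were compared, and the counts are read here as gene-body counts. The deposited fold changes, adjusted p-values and gene classes of the authors' own DESeq2 comparisons were not used.

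Each column is a whole number of reads times 1 factor (100% of values within 0.02 of a whole read), so reads and size factors were recovered. Differences were fitted with limma 3.58.1 (trend and empirical Bayes moderation, R 4.3.3) on log2(value + 1) over all 12 libraries and transcripts with 10 reads in 3 libraries or more, with Benjamini-Hochberg adjustment over all 16940 transcripts. edgeR 4.0.16 and DESeq2 1.42.0 on the recovered reads, TMM, other pseudocounts, other filters, a replicate block and leaving out each library were alternatives. The fits were also run on simulated counts with the same dispersion for every gene and no link between replicates. These data differ from that setting, so the run does not measure how the fits perform on them. The Poisson intervals treat every read as independent and hold no replicate spread, and the other intervals cover replicate spread only. The study's methods call the replicates biological, and the sources used here do not say whether they were separate cultures, so p-values measure the spread between these samples.

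The members and gene lists were chosen with earlier results of these data known. The text names the 4 members, up to 6 called genes per list in each direction, the 5 symbols most correlated with each member and the 2 nearest symbols on each side. Other genes are named as examples chosen after their values were seen. One marker gene is counted in its lists, and its own values are not reported here.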

Additional observations from a re-analysis of the deposited data

Results flagged for a closer look

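The change of Ebf2 with OHT treatment differed between the lines. The change in PRC1CPM minus that in PRC1CKO was -3.48 ± 0.54 on the log2 scale (SE, 3 libraries in each of 4 conditions), from a log2 difference of 7.22 in PRC1CKO and 3.73 in PRC1CPM, and it was smaller in PRC1CPM under all alternatives tried. Ebf2 was chosen for this pattern, so its value is a description. The untreated level in PRC1CKO rests on 4, 8 and 2 reads. With a pseudocount of 10 the value was -2.45, and it ran from -3.73 to -3.02 when each library was left out in turn.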

How the results depend on the processing

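Directions held for every member in both treatment comparisons under all 23 alternatives. With TMM, 1133 transcripts were lower in PRC1CKO and 595 in PRC1CPM; 524 were higher and 261 lower in PRC1CPM than in PRC1CKO after OHT, 745 and 305 untreated, 14 were called for the difference of the changes, and Ebf1 after OHT (-0.90) was called. With a pseudocount of 10, Ebf2 and Ebf3 had 5.74 and 4.93 in PRC1CKO, Ebf2 had 1.16 between untreated lines and -2.45 for the difference of the changes, and 77 transcripts were lower between the lines after OHT. With a pseudocount of 0.1 these were 24, and 1 was called for the difference of the changes. Without the filter on low counts, 346 (PRC1CKO) and 144 (PRC1CPM) were lower, and 58 higher and 15 lower between the lines after OHT and 103 and 29 untreated. After OHT, DESeq2 gave 345 higher and 85 lower, with 15 for the difference of the changes, and edgeR gave 59 lower. With only the libraries compared, 551 were higher and 141 lower after OHT, 228 and 47 untreated, and Ebf1 (-0.80) was called. Without the mean-variance trend, 0 were called by limma for the difference of the changes. The cause was not tested.

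The replicate numbers are shared across groups, and libraries of the same number deviated together in 17 of 18 pairs (r over 0.1, lowest 0.0988, mean 0.205), which is a hint from the data and not a pairing by design. With the replicate block, 823 (PRC1CKO) and 461 (PRC1CPM) were lower, 1131 were higher and 232 lower after OHT, 1631 and 253 untreated, and 324 were called for the difference of the changes. Ebf1 (-0.80) and Ebf3 (-0.68) after OHT and Ebf3 (0.85) untreated were then called. In edgeR with the block, added after seeing the data, these were 801, 475, 1187, 290, 1523, 223 and 342, with Ebf1 -0.82, Ebf3 -0.67 and Ebf3 untreated 0.78.

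Leaving out each library in turn gave 2016 to 3729 higher and 326 to 674 lower in PRC1CKO, 1439 to 2547 and 123 to 339 in PRC1CPM, 81 to 399 and 17 to 78 between the lines after OHT, 170 to 1492 and 46 to 105 untreated, and 1 to 28 for the difference of the changes. Ebf1 ran from 1.92 to 2.84 in PRC1CKO, from -1.001 to -0.63 between the lines after OHT, and from -1.28 to -0.37 for the difference of the changes.

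Per kb of exon, the share of Ebf1 was 40.5% and 43.0% in untreated and OHT-treated PRC1CKO and 34.5% and 36.5% in PRC1CPM, that of Ebf4 was 56.8%, 22.7%, 60.4% and 36.5%, and that of Ebf3 was 19.4% in OHT-treated PRC1CKO, 3.26% in untreated and 18.0% in OHT-treated PRC1CPM.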
